A study of Mus musculus with 36 samples.

Results

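Cholesterol is made from acetyl units through the mevalonate pathway and the sterol pathway that follows it, and liver carries out much of this synthesis. The pathway is governed by SREBP2, a transcription factor held in the endoplasmic reticulum while sterols are plentiful and released to switch on the genes of synthesis when sterols fall. Chromatin that is kept silent, repeats included, commonly carries histone H3 trimethylated at lysine 9 (H3K9me3). Described here are 8 genes of this pathway, taken as every row of the 6 deposited comparison tables whose gene symbol was Hmgcs1, Mvd, Idi1, Fdft1, Sqle, Hsd17b7, Srebf2 or Insig1. The first 6 encode enzymes of synthesis, Srebf2 encodes SREBP2 and Insig1 encodes a protein that retains SREBP2 in the endoplasmic reticulum. None of the 8 encodes an uptake protein, so genes of uptake are given with the wider pathway at the end. In all, 209 of 786789 rows belonged to these genes, and each gene had a row in each table.

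H3K9me3 was measured by ChIP-seq in liver tissue of mouse offspring. The 8 groups were female and male offspring of dams given a control diet or a Western-style diet that made the dams obese (MO, maternal obesity), each at 3 weeks, before weaning, and at 8 weeks, after 5 weeks on chow. Each group had 4 ChIP libraries, 32 in all, beside 4 input libraries not used here. The study's methods state that the animals included littermate controls from a colony with floxed Reg3g alleles and give no genotype per library, and the control dams received chow. MO offspring differ from controls in the diet of their dams before, during and after pregnancy, so these exposures cannot be told apart. The tables give, per bin of at most 501 bp, a log2 change between groups of 4 libraries, an average signal in CPM (counts scaled to library size) and a p-value from edgeR's exact test. Values per library were not analysed here, so the change, its approximate standard error (SE, from the deposited p-value) and the interval are given in place of single samples, and the exact depth of each library was not analysed here, the methods giving only an approximate depth common to all. Liver identity was not checked against marker genes, since the mark does not measure their RNA.

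Member bins numbered 30 of 120683 in the age comparison of control females and 41 of 148133 in that of control males. In the MO comparisons they numbered 32 of 140214 (females at 3 weeks), 44 of 159357 (males at 3 weeks), 32 of 116257 (females at 8 weeks) and 30 of 102145 (males at 8 weeks). Overlapping peaks of the tables were joined into 51 places, of which 31 were found in both sexes, 14 in males alone and 6 in females alone. The places were unevenly spread over the genes. Insig1 had 15, Srebf2 12, Idi1 7, Fdft1 6, Sqle 4, Hmgcs1 3, Mvd 2 and Hsd17b7 2. The symbol names the nearest gene and not the gene that holds the bin. For Srebf2, 50 of 54 rows lay inside the gene, whereas this held for 6 of 60 rows of Insig1 and 2 of 28 rows of Idi1, whose bins lay up to 106437 bp and 31267 bp from the start of the gene. Some bins lay inside a neighbour, such as Neil2 beside Fdft1, Nim1k beside Hmgcs1, Washc5 beside Sqle and Ccdc134 beside Srebf2. Others lay in the long noncoding gene Gm26608 beside Insig1 and, upstream of the start of Mvd, in Gm20388 and Gm20735. All coordinates are on GRCm38 (mm10), counted from 1.

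The start of a gene was covered in some members and not in others. Hmgcs1 (the cytosolic synthase that makes the substrate of HMG-CoA reductase) had a bin across its start in all 6 tables. Bins lay within 3 kb of the start of Mvd, Sqle, Srebf2 and Insig1 in all 6 tables, of Fdft1 in 5 and of Idi1 in 2. Hsd17b7, a reductase of a late sterol step, had none in any table, and its closest bin lay 14273 bp downstream of the start in its last intron. For the 6 members with a promoter window in RefSeq (GRCm38.p6; 250 bases before to 50 after the start; Sqle and Fdft1 were not matched), letters of 4 motifs were searched on both strands. The sterol regulatory element, the sequence bound by SREBP2, was searched as TCACNCCAC and was found in the window of Hmgcs1 only, 137 bases before the start, against 408 of 32851 windows of all genes (1.24%). CCAAT, the box bound by NF-Y, stood in 6 of 6 windows (37.4% of all windows), GGGCGG, a GC box, in 6 of 6 (35.7%) and CACGTG, an E-box, in 2 of 6 (7.15%), those of Hsd17b7 and Insig1. A match is a description of letters and shows no binding.

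Shown here are the bases before the starts of Hmgcs1, Mvd and Insig1, the windows most often overlapped by an H3K9me3 bin (in 6, 3 and 4 tables). They are written 5′ to 3′ on the strand of the gene from RefSeq, with CCAAT or its complement and the sterol regulatory element in capitals. Hmgcs1 is chr13:119690101-119690350 on the plus strand, Mvd chr8:122443423-122443672 on the minus strand and Insig1 chr5:28071162-28071362 on the plus strand.
Hmgcs1: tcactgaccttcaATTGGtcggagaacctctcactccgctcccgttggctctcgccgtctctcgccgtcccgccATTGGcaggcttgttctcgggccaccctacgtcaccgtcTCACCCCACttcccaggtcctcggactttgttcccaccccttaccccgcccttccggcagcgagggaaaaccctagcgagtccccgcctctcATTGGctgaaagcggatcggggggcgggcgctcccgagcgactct
Mvd: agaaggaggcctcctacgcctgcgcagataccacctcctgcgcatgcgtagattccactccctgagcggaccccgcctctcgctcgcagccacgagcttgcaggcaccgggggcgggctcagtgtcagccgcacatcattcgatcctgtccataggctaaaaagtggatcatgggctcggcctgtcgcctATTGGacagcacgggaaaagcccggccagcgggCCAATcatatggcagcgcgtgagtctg
Insig1: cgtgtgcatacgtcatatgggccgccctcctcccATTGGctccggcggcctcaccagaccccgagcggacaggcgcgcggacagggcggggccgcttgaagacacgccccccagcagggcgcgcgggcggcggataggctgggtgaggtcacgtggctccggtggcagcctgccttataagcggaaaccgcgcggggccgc
The 250 bases of Hmgcs1 hold 1 sterol regulatory element and 3 CCAAT boxes, those of Mvd hold 2 CCAAT boxes, and the 201 bases of Insig1 hold 1.

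From 3 to 8 weeks, control females and control males were compared at all member bins to ask how the mark moves with age in each sex. A call was a false discovery rate (FDR) under 0.05. In females 1 of 30 member bins was called, lower at 8 weeks, against 2.72% of all bins. In males 4 of 41 were called, 2 higher and 2 lower, against 4.41% of all bins. At an unadjusted p under 0.05 there were 5 bins in females (2 higher, 3 lower; 16.7% of the member bins against 17.5% of all bins) and 16 in males (8 higher, 8 lower; 39.0% against 21.8%). The median change of the member bins was 0.06 in females and 0.12 in males on the log2 scale, beside -0.03 and -0.05 over all bins. The male median was -0.06 after subtraction of the median of bins alike in GC content and signal, and the mean was -0.07, so its sign depends on the summary. The male values thus lay on both sides of 0, and the called ones ran from -1.58 to 1.22. The plot of age change by distance shows where in each locus these bins lie.

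**Figure D1:**
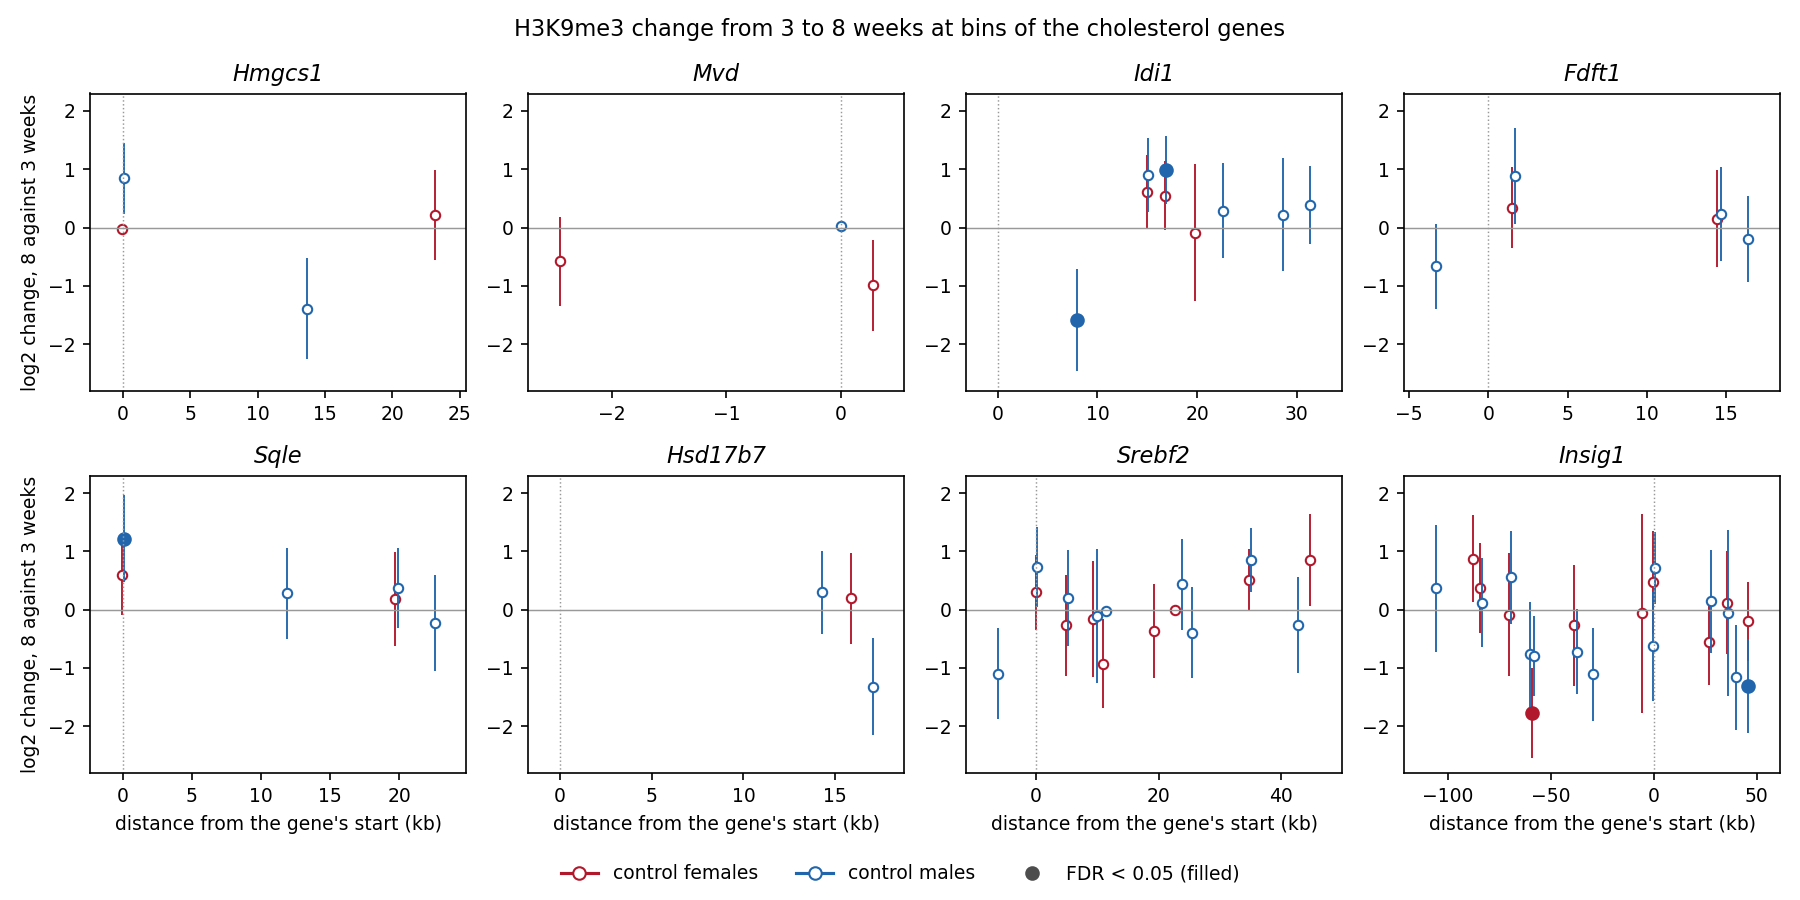
Each panel is a gene, the horizontal axis is distance from the start of the gene in kb along its direction of transcription and the vertical axis is the log2 change of H3K9me3 at 8 against 3 weeks. Points are bins in control females (red) and control males (blue), lines are approximate 95% intervals (absent where the deposited p is 1), filled points have an FDR under 0.05, and horizontal offsets keep the sexes apart. The 5 filled points lie at Insig1 (2), Idi1 (2) and Sqle (1).

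The bin with the strongest evidence lay 58652 bp upstream of Insig1, at chr5:28012219-28012711, in sequence with no annotated gene and 0% repeat-masked bases. In control females its H3K9me3 was 3.40-fold lower at 8 weeks than at 3 weeks (log2 change -1.77, SE 0.39, interval -2.54 to -0.99, edgeR's exact test FDR 0.00192, average signal 6.44 CPM). A male bin that overlaps it had a change of -0.79 (SE 0.35, FDR 0.229). The difference between the sexes was 0.98 with an interval from -0.06 to 2.01, so it did not exceed the error. MO against control at the same place gave -0.99 in females at 3 weeks (edgeR's exact test p = 0.00559, FDR 0.806) and -0.55 in males at 3 weeks (p = 0.0852). The age and MO comparisons of a sex at 3 weeks share the 3-week control libraries. The place had no bin in either 8-week MO table.

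In males a second Insig1 bin, 45173 bp downstream of the start at chr5:28116536-28117036, was 2.48-fold lower at 8 weeks (-1.31, SE 0.41, FDR 0.0469 by edgeR's exact test). Its signal was 4.19 CPM, no annotated gene overlapped it, and its peak was absent from the 8-week MO comparison of males. The female bin of this place lies elsewhere in the peak and had a change of -0.20 (SE 0.34). Of the 13 male bins of Insig1 in this comparison, those within 3 kb of the start had changes of 0.71 and -0.63. Bins at 29972 bp upstream, within Gm26608, and at 39552 bp downstream had -1.11 (FDR 0.114) and -1.16 (FDR 0.156). Other distant bins had values above 0, of 0.36, 0.12 and 0.56 upstream and 0.14 downstream, and 5 of the 13 were above 0 in all.

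Idi1, the isomerase that makes dimethylallyl diphosphate, had 2 called male bins with opposite signs. At chr13:8893324-8893824, 7823 bp downstream of the start and just past the end of the gene, the mark was 3.00-fold lower at 8 weeks (-1.58, SE 0.45, edgeR's exact test FDR 0.0217). At chr13:8902295-8902795, 16794 bp downstream, it was 1.98-fold higher (0.98, SE 0.30, FDR 0.0376). The second bin had a signal of 9.02 CPM, above 98.9% of the bins in that table, and 91.6% of its bases are repeat-masked, whereas the first had 3.72 CPM and 22.0%. A neighbouring bin whose bases are 100% masked had a change of 0.90 in males (FDR 0.105) and 0.61 in females (FDR 0.393). In females the bin that overlaps the called repeat-rich one had 0.55 (SE 0.30, FDR 0.428), and the difference of 0.44 between the sexes had an interval from -0.40 to 1.27. The lower bin had no counterpart in a female table, and its peak was absent from the 8-week MO comparison of males.

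The central 300 bases of the 4 called bins outside promoters show how different these sequences are. They are read from GRCm38.p6 on the plus strand, 5′ to 3′, with each CG dinucleotide in capitals. The Insig1 female bin is chr5:28012316-28012615, the Insig1 male bin chr5:28116637-28116936, the lower Idi1 bin chr13:8893425-8893724 and the higher Idi1 bin chr13:8902396-8902695.
Insig1, lower in females: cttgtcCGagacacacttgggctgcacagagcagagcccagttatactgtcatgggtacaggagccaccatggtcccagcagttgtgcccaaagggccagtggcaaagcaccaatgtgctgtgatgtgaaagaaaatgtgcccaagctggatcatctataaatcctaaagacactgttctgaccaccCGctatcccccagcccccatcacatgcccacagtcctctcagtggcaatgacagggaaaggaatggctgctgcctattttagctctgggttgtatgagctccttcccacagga
Insig1, lower in males: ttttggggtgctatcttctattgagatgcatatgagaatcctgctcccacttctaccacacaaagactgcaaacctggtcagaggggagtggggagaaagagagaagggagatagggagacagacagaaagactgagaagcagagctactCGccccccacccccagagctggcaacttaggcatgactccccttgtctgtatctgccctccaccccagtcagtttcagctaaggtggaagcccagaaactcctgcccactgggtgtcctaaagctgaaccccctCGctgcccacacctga
Idi1, lower in males: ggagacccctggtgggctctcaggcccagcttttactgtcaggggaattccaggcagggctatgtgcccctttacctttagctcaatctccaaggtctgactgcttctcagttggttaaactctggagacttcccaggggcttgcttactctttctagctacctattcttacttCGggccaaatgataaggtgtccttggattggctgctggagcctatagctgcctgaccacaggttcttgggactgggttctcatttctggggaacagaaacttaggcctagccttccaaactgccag
Idi1, higher in males: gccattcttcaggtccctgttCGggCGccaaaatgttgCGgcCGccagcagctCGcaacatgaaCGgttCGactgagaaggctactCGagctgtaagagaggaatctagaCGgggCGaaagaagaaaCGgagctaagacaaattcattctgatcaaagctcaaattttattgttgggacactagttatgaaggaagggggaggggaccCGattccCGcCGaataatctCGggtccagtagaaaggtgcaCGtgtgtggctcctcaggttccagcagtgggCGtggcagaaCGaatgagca
The higher Idi1 stretch holds 18 CG dinucleotides and is 100% repeat-masked. The 3 stretches of bins that were lower at 8 weeks hold 1 or 2, and their masked shares are 0% and 28.0% at Insig1 and 14.3% at Idi1.

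Sqle, squalene epoxidase, had the called promoter bin. At chr15:59314617-59315117, across the start of the gene, the mark in males was 2.33-fold higher at 8 weeks (1.22, SE 0.38, FDR 0.046 by edgeR's exact test, 4.62 CPM, GC content 72.5%). The female bin in this promoter, which overlaps the male one only in part, had 0.59 (SE 0.35, FDR 0.475). The other male bins named Sqle had changes of 0.28, 0.37 and -0.23, the last of these and the 0.37 inside Washc5.

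Just outside the threshold in males stood bins of Hmgcs1, Hsd17b7 and Srebf2. In intron 6 of Hmgcs1 (chr13:119704024-119704372) the change was -1.39 (FDR 0.0515), and in the 3′ untranslated region of Hsd17b7 (chr1:169951730-169952230) it was -1.32 (FDR 0.0546). In exon 10 of Srebf2 (chr15:82182021-82182521) it was 0.86 (FDR 0.0594). The called bins nearest to the threshold from inside were the Insig1 bin at 0.0469 and the Sqle promoter at 0.046. With the adjustment taken over the deposited bins alone, these 3 outside bins passed as well, and 7 were called in males. That adjustment is more lenient than the deposited one (FDR 0.0157 against 0.0217 at the lower Idi1 bin). Each peak has 1 bin listed, so tested bins that are not listed can be left out of it.

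The exon 10 bin of Srebf2 lies in a long peak and had the strongest signal of the 8 genes in each of the 3 tables that list it. It reached 10.4 CPM in the male age table, above 99.5% of all bins, and 12.6 CPM in the female one. In males at 8 weeks with MO and control averaged it reached 20.9 CPM. The median over all bins was 4.29, 6.29 and 6.68 CPM in the same order. Females had an age change of 0.51 there (edgeR's exact test p = 0.0631) and the difference of 0.35 between the sexes had an interval from -0.42 to 1.11. The rest of Srebf2 varied in sign. Its male age changes ran from -1.10, in Ccdc134 upstream of the start, to 0.73 at the promoter, and its female ones from -0.93 in intron 1 (chr15:82158327-82158827, edgeR's exact test p = 0.0186) to 0.86 further down the gene (chr15:82192143-82192643, p = 0.0329).

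The highest signal of each of the other genes came from an 8-week MO table, and which bin of a gene was strongest differed between tables. Signals are not on a common scale across tables. The median over all bins was 6.68 CPM (males) and 6.19 CPM (females) in the 8-week MO tables. It was 4.10 and 5.31 CPM in the 3-week MO tables and 4.29 and 6.29 CPM in the age tables, males first. A higher value at 8 weeks thus does not by itself show more of the mark at these genes. In males at 8 weeks, MO and control averaged, the highest values were those of Hmgcs1 (the start bin, 11.4 CPM), Insig1 (the start bin, 12.0 CPM), Mvd (chr8:122443000-122443500, 7.49 CPM), the repeat-masked bin of Idi1 (chr13:8900496-8900933, 12.4 CPM) and a bin of Fdft1 at an internal start (chr14:63164591-63164983, 8.79 CPM). The start bin of Insig1 was not the strongest in the female tables (4.44 to 5.16 CPM), and the strongest Sqle bin in the male tables was the one in Washc5 (5.13 to 8.03 CPM). In females at 8 weeks the highest values were those of the Sqle promoter (chr15:59314927-59315427, 9.29 CPM) and the 3′ untranslated region of Hsd17b7 (chr1:169952860-169953360, 7.86 CPM). Most of these bins are 501 bp long, and those of Idi1 and Fdft1 are 438 and 393 bp.

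The bins at the starts of the genes can be set side by side. In males 6 of 7 bins within 3 kb of a start were higher at 8 weeks, with a median of 0.73, beside medians of 0.12 over all bins annotated to a promoter (within 3 kb) and 0.29 over the 19253 within 1 kb. The values were 1.22 at Sqle, 0.89 at Fdft1 (squalene synthase; chr14:63177650-63177989, edgeR's exact test p = 0.0342), 0.84 at Hmgcs1 (chr13:119690330-119690830, p = 0.00631), 0.73 at Srebf2 (chr15:82147057-82147557, p = 0.0380), 0.71 at the start of Insig1 (chr5:28071374-28071874, p = 0.0243), 0.02 at Mvd (mevalonate diphosphate decarboxylase) and -0.63 upstream of Insig1. In females 4 of 7 were higher with a median of 0.29, beside 0.05 over all promoter bins and 0.16 over the 17140 within 1 kb. There the values were 0.59 at Sqle, 0.47 at Insig1, 0.34 at Fdft1, 0.29 at Srebf2, -0.02 at Hmgcs1 and -0.58 and -0.99 at Mvd (p = 0.138 and p = 0.0128 by edgeR's exact test). These bins have few repeats, with a median GC content of 66.8% in males against 52.4% in the other member bins. The medians over all promoter bins rest on the deposited annotation, which also counts starts of transcripts inside a gene. By that annotation 10 male and 9 female member bins are promoter bins, so the sets are not chosen alike. The added bins had 0.28 at Sqle and 0.23 and -0.20 at Fdft1 in males. In females they had 0.15 at Fdft1 and 0.86 at Srebf2.

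**Figure D2:**
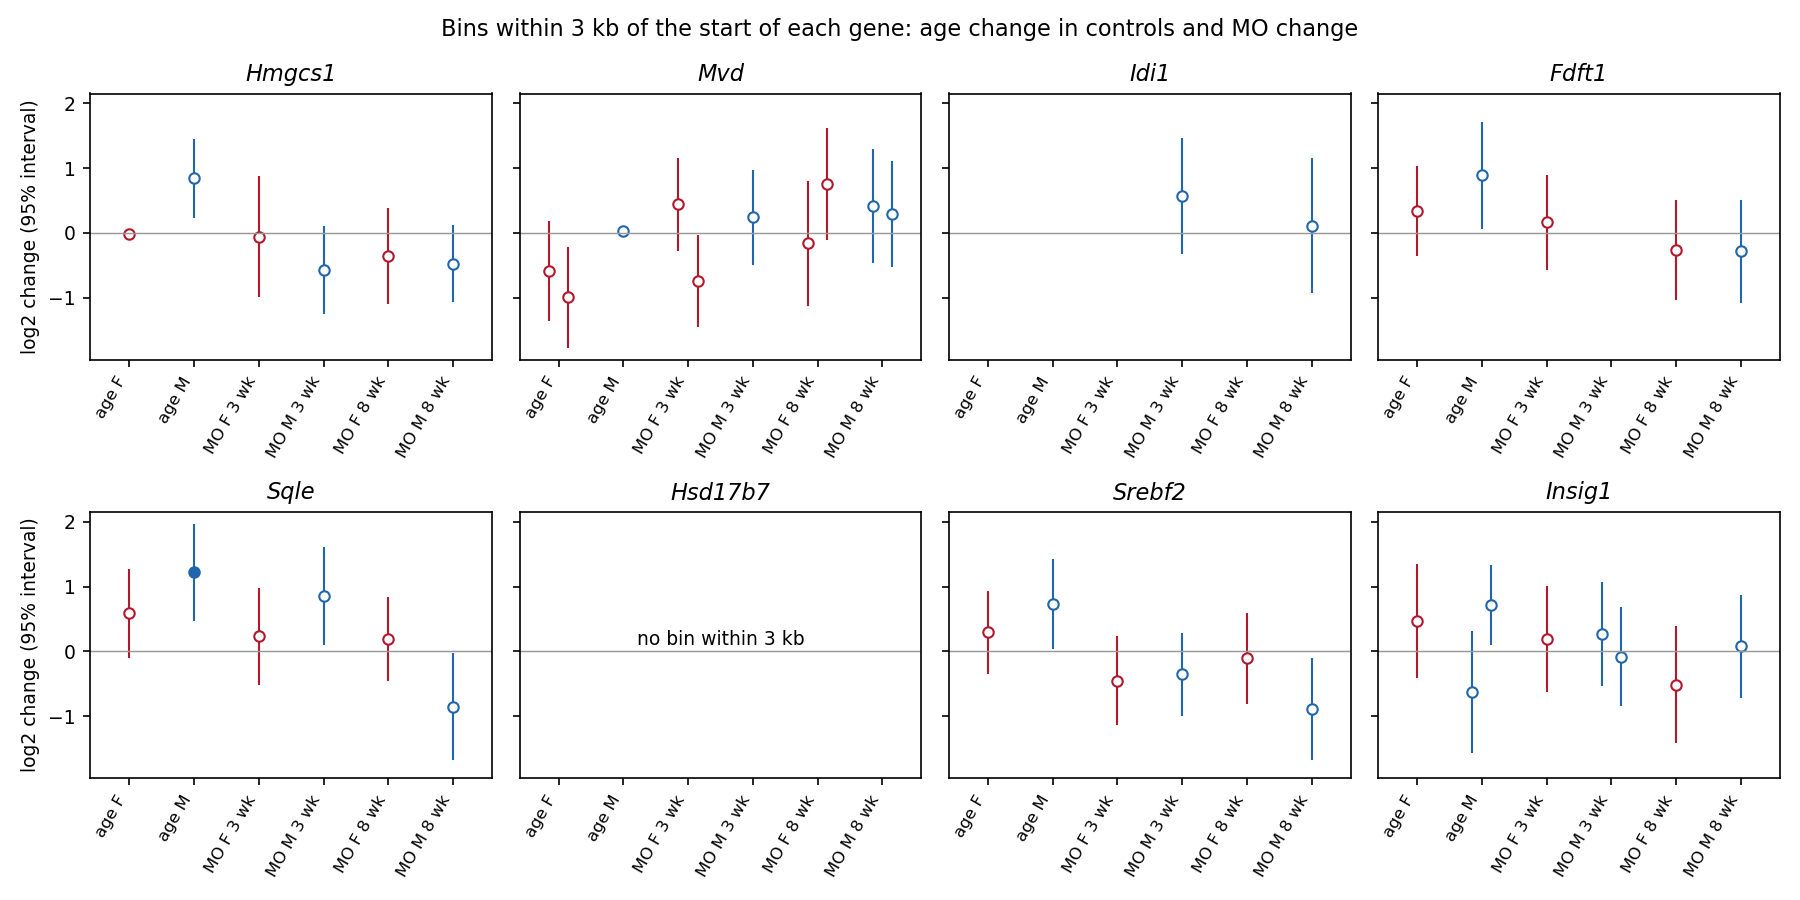
Each panel is a gene and shows the log2 change of its bins within 3 kb of the start in the 6 comparisons, red for females (F) and blue for males (M), with approximate 95% intervals (absent where the deposited p is 1) and filled points past the threshold of the comparison. The filled point is the Sqle promoter in the male age comparison, and Sqle goes from 0.86 with MO in males at 3 weeks to -0.85 at 8 weeks.

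Over the whole tables the age change varied with the base composition and signal of a bin. After the median change of bins of like GC content and like signal was subtracted, the Insig1 bin in females kept a change of -1.61 (FDR 0.0152, p recomputed from the approximate SE). The 4 male bins had -1.19 and 0.50 at Idi1, 0.69 at Sqle and -1.04 at Insig1, with an FDR of 0.146, 0.429, 0.377 and 0.166, so that 0 of 41 male bins were called. The 7 male bins at gene starts then had a median of 0.25 with 5 above 0, and the 7 female ones a median of -0.04 with 2 above 0. Whether the trend is technical was not tested.

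**Figure D3:**
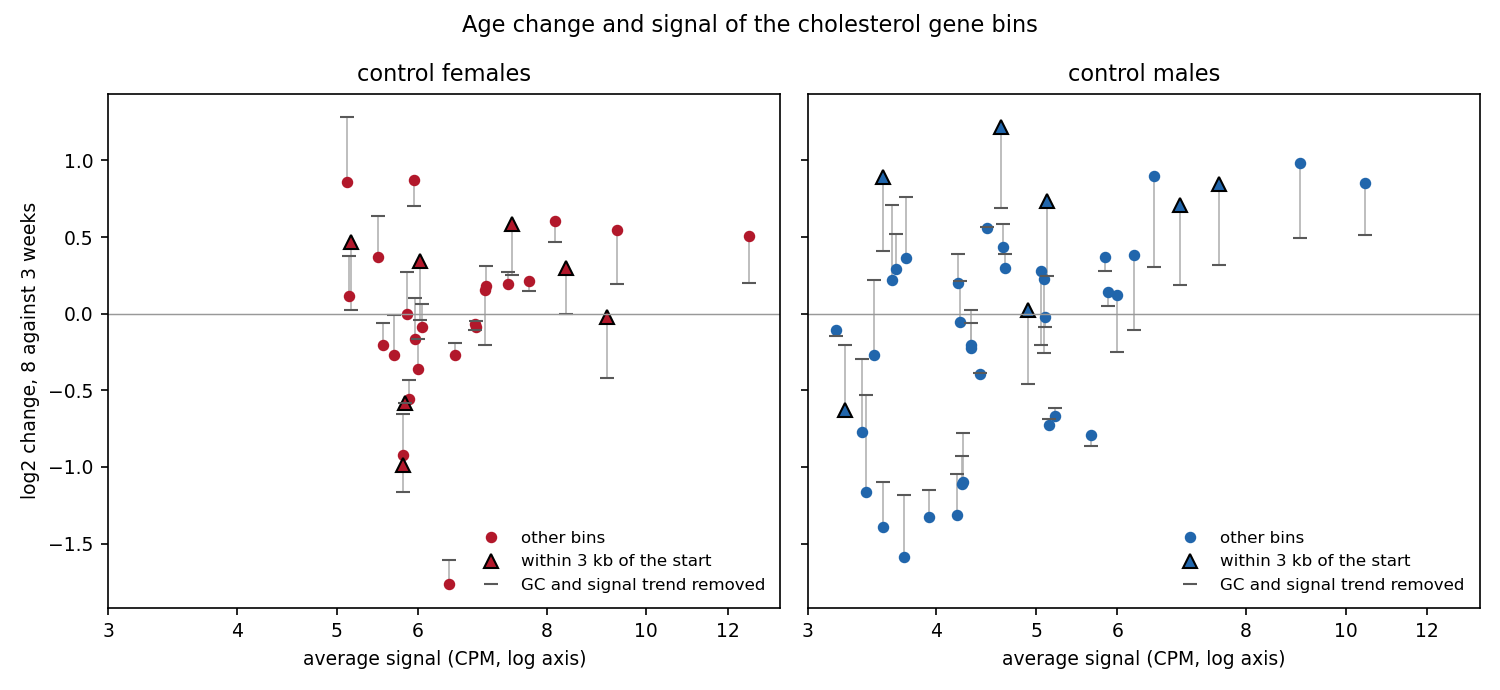
The horizontal axis is the average signal of a bin in CPM on a log axis and the vertical axis its log2 change at 8 against 3 weeks, for control females on the left and control males on the right. Triangles are bins within 3 kb of a gene start, circles are the other bins, and each grey dash is the same bin after the GC and signal trend was removed. Among male bins the dashes lie closer to 0 than the symbols for all 4 called bins.

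The sexes can be compared directly where their bins overlap by at least 50% of each, since the male and female comparisons share no library. Of 13 such pairs among the member bins, 11 had the same sign of age change (64.7% over all pairs). For 11 pairs an interval of the difference could be given, and 0 of them left out 0, beside 6.67% of all pairs. The adjusted p of the difference was at least 0.790. The largest difference with an interval was the 0.98 at Insig1.

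MO was compared with control in each sex at each age, to ask whether the diet of the dam left a difference in the mark at these genes. The threshold was an unadjusted p under 0.001. It was passed by 0 of 32 member bins in females at 3 weeks (0.211% of all bins), 0 of 44 in males at 3 weeks (0.278%), 0 of 32 in females at 8 weeks (0.162%) and 0 of 30 in males at 8 weeks (0.114%), by edgeR's exact test. At an unadjusted p under 0.05 the counts were 3 (7.72% of all bins), 4 (8.83%), 1 (7.00%) and 2 (6.50%). The smallest FDR of a member bin was 0.806, 0.727, 0.951 and 1.00 in the same order. Median changes were -0.03, -0.05, 0.02 and 0.04, beside -0.01, 0.03, 0.01 and 0.00 over all bins. The median SE of a member bin was between 0.38 and 0.43, so a change of that size lay within the error of these libraries.

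**Figure D4:**
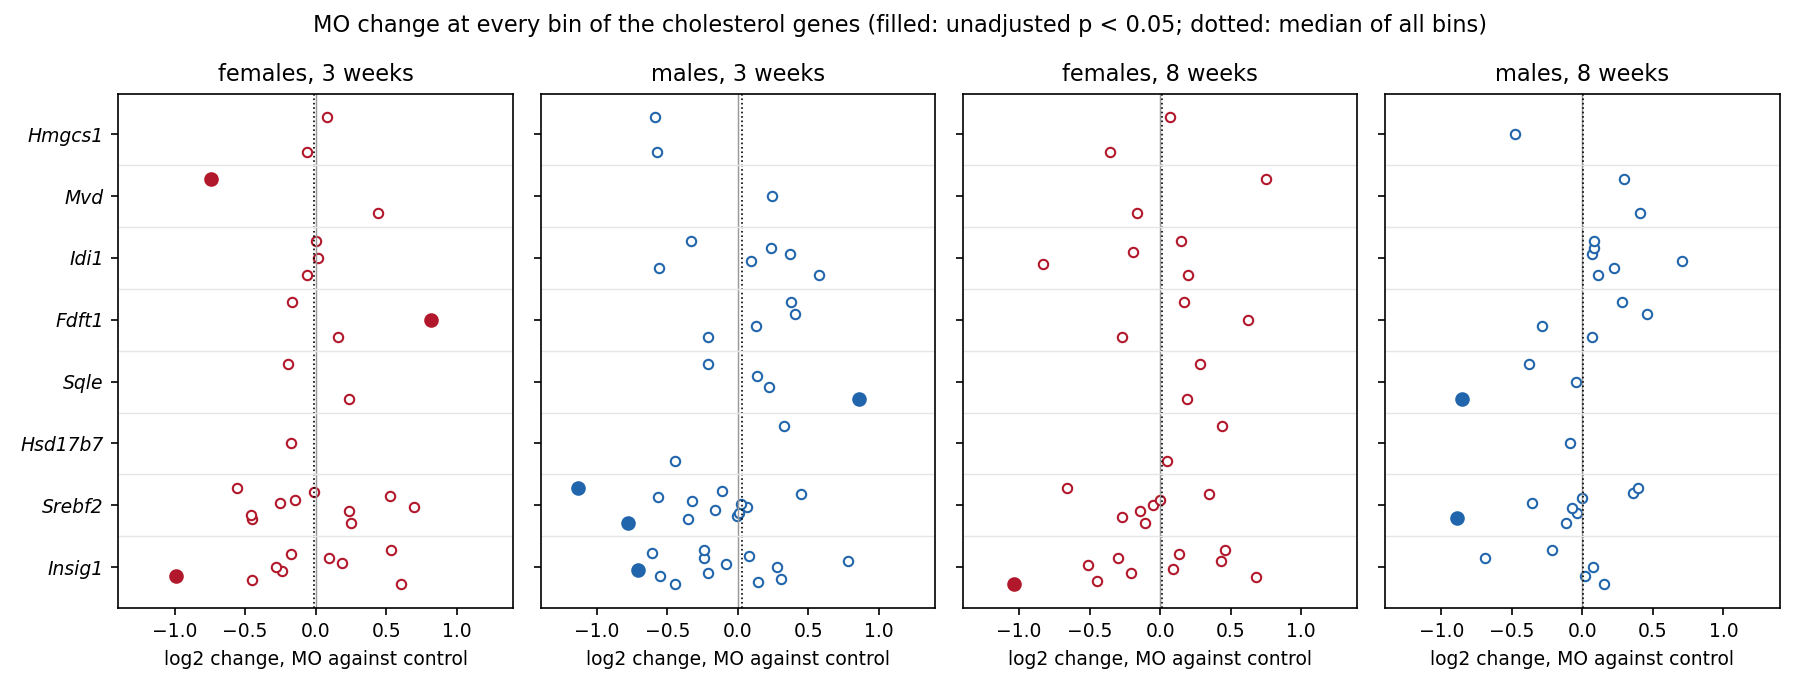
Each panel is 1 of the 4 MO comparisons. Points are bins, placed by gene on the vertical axis and by log2 change, MO against control, on the horizontal axis. Filled points have an unadjusted p under 0.05 and the dotted line is the median of all bins. Of the 138 points 10 are filled, where 6.50% to 8.83% of all bins in a comparison have such a p by edgeR's exact test. Of the 10, 8 lie below 0, and the direction over all bins with such a p is not given here.

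At 3 weeks in females the 3 bins under an unadjusted p of 0.05 were the upstream Insig1 bin given above, the Mvd promoter (chr8:122442634-122443134, -0.74, edgeR's exact test p = 0.0409) and an intron of Fdft1 (chr14:63171486-63171986, 0.82, p = 0.0335). In males at 3 weeks they were the Sqle promoter (0.86, edgeR's exact test p = 0.0260), a bin in Srebf2 (chr15:82192641-82193141, -1.13, p = 0.00333), the bin in Ccdc134 named Srebf2 (chr15:82140200-82140700, -0.78, p = 0.0310) and a bin in Gm26608 named Insig1 (chr5:28040999-28041391, -0.71, p = 0.0484). At 8 weeks females had 1, far upstream of Insig1 (chr5:27984083-27984284, -1.04, edgeR's exact test p = 0.0101). Males at 8 weeks had the promoters of Sqle (-0.85, edgeR's exact test p = 0.0434) and Srebf2 (chr15:82147557-82148057, -0.89, p = 0.0266).

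The promoters of Sqle in males and of Mvd in females had MO values of opposite sign at the 2 ages. In the other sex they did not, with 0.23 and 0.19 at Sqle in females and 0.24 and 0.30 at Mvd in males. With MO the Sqle promoter in males was at 0.86 at 3 weeks and at -0.85 at 8 weeks, a difference of -1.71 (interval -2.82 to -0.59). Adjusted over all 59825 bin pairs with an interval the p of this difference was 0.615. The first Mvd bin in females (chr8:122442634-122443134) went from -0.74 to 0.75, a difference of 1.49 (interval 0.37 to 2.61, adjusted p = 0.732). The second had a difference of -0.60 (interval -1.80 to 0.60). The 3-week and 8-week MO comparisons share no library. Of the member pairs with an interval, 1 of 18 in males and 1 of 19 in females left out 0, beside 6.35% and 5.97% of all pairs. At both ages the Hmgcs1 promoter had negative values in males, -0.57 (p = 0.0960) and -0.48 (edgeR's exact test p = 0.115), and in females -0.06 and -0.36.

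Between the sexes, the MO change differed with an interval that left out 0 at 1 of 9 member pairs at 3 weeks, an Insig1 bin (chr5:27987032-27987532 in females) with 0.61 in females and -0.45 in males, and at 1 of 10 at 8 weeks, an Idi1 bin with -0.83 in females and 0.70 in males (difference 1.53, interval 0.34 to 2.72). The shares over all pairs were 6.93% and 6.19%, and the adjusted p of the member pairs was at least 0.704 and 0.741. Over all bins 0 pairs had an adjusted p under 0.05 in any of these contrasts.

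The wider pathway was read from 4 lists of 42 other genes. Of 17 further genes of synthesis 16 had a bin, all but Ggps1. Called with age were 1 of 61 bins in females, the promoter of the X-linked Ebp (1.07, FDR 0.0446), and 2 of 73 in males, near Lss (1.07, FDR 0.0176, in no annotated gene) and a bin named Lbr inside Dnah14 (1.02, FDR 0.0391). These are 1.64% and 2.74% of the bins of the list, beside the 2.72% and 4.41% of all bins. No bin of this list passed the MO threshold in the 4 comparisons (0 calls, with 22 of 267 bins at an unadjusted p under 0.05 by edgeR's exact test, beside the 6.50% to 8.83% of all bins). Genes that control SREBP2 had 3 of 51 female bins called with age (5.88%, beside 2.72% of all bins). All 3 were higher at 8 weeks and named Mbtps2, the X-linked site 2 protease that frees the factor (0.87 to 1.25). In males 1 of 62 was called (1.61%, beside 4.41%).

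Uptake and trafficking genes had more bins. With age, 4 of 116 were called in females (1 higher, 3 lower) and 10 of 138 in males (5 higher, 5 lower), or 3.45% and 7.25% beside the 2.72% and 4.41% of all bins. The promoter of Vldlr, a lipoprotein receptor, was higher in males at 8 weeks (1.24, FDR 0.0134) and was lower with MO in males at 8 weeks (-1.25, edgeR's exact test p = 0.000556, FDR 1.00). These comparisons share the 8-week control males. For Scarb1, the receptor for high density lipoprotein, a male bin in intron 1 was lower with age (-1.75), and the female bin that was lower (-1.54) lay elsewhere, inside Gm32585. A bin in intron 1 of Scarb1 was lower with MO in females at 3 weeks (-1.36, edgeR's exact test p = 0.000771, FDR 0.684). The MO threshold was thus passed in this list by 1 of 134 bins in females at 3 weeks (0.746%, beside 0.211% of all bins) and 1 of 96 in males at 8 weeks (1.04%, beside 0.114%), and by 0 of 141 in males at 3 weeks and 0 of 101 in females at 8 weeks, where 16 and 11 had an unadjusted p under 0.05. Bins named Mylip, which encodes a ubiquitin ligase, were higher, 1 in females (1.29) and 3 in males (0.92 to 1.88). Also called with age were Npc1l1 (-1.33, females) and Lrp1 (-1.56), Npc2 (-1.51) and Stard4 (-1.88) in males. Of 3 esterification genes, Soat1 had a called female bin (-1.41, FDR 0.0197). It was 1 of the 10 female bins of that list, beside 2.72% of all bins, and 0 of 14 were called in males, beside 4.41%. With the GC and signal trend removed, all 3 age calls of the synthesis list, those of Mbtps2 and that of Soat1 lost the FDR threshold, and 4 of the 14 of the uptake list kept it, 3 of Mylip and that of Npc1l1.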

How the data were processed

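Liver H3K9me3 ChIP-seq libraries were compared by the authors, per the study's methods, after alignment to mm10 (GRCm38) with the Burrows-Wheeler Aligner, broad peak calling with MACS2, merging of consensus peaks within each sex, division of long peaks into bins and counting with featureCounts. The authors deposited, for each bin of 6 comparisons, a log2 change, an average log2 CPM, a p-value from edgeR's exact test and an FDR, with the nearest gene by ChIPseeker. These columns of the authors' comparisons are the measurements used, since values per library were not analysed here. Each peak has 1 bin in a table, and shares of all bins are shares of the bins listed. Age changes were turned so that a positive value is higher at 8 weeks.

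Rows with the symbols of the 8 genes were taken, and every such bin was counted, with positions given for those past a threshold, those in a gene or promoter at an unadjusted p under 0.05 and the bin of strongest signal. The members and lists were chosen with earlier results of these data known. An SE was approximated as the change divided by the normal quantile of its p-value, and intervals are at 95%. Differences between comparisons that share no library used bins overlapping by at least 50% of each, with Benjamini-Hochberg adjustment over all pairs. Gene positions are from GENCODE M21, and GC content and repeat masking from GRCm38.p6. For trend removal the median change per decile of GC content and of log2 CPM was subtracted. Some results of the wider lists are not reported here. The functions were tested on simulated data. Both call thresholds are those of the study's methods. Scripts ran in Python 3.11.15 (pandas 2.3.3, numpy 2.4.6, scipy 1.17.1).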

Additional observations from a re-analysis of the deposited data

How the results depend on the processing

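No paired analysis was possible because the tables give comparisons and not values per library, and for the same reason no library could be left out. The median change of the member bins took both signs over the settings tried in each of the 6 comparisons, so no direction rests on it. It ran from -0.01 to 0.19 for age in females and from -0.07 to 0.29 for age in males, where it was -0.06 with the GC and signal trend removed and -0.07 as a mean. For MO it ran from -0.10 to 0.07 (females) and -0.21 to 0.09 (males) at 3 weeks, then from -0.11 to 0.15 (females) and -0.04 to 0.09 (males) at 8 weeks. The count of 1 called female age bin became 0 without distal intergenic bins, with peaks of a single bin only and with genes assigned by position, since the Insig1 bin is distal and lies in a longer peak. The count of 4 male age bins became 0 at an FDR under 0.01, with single-bin peaks and with the GC and signal trend removed. It became 1 without distal bins (Sqle), 2 with signal above the median and 2 by position. It became 7 at an FDR under 0.10 or with the more lenient adjustment over the deposited bins alone. The MO counts of 0 became, at a p under 0.01, 1 for each sex at 3 weeks. At a p under 0.05 they became 3 (females) and 4 (males) at 3 weeks, then 1 (females) and 2 (males) at 8 weeks. With the GC and signal trend removed, the 4 male bins lost the FDR threshold and kept their direction. Where no cause is named here, the cause was not tested. The exact depth per library was not analysed here, and changes near the SE are within the error.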

Other observations

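The bin kept for a peak was not always the same between the tables of a sex. Of the member peaks long enough for several bins and present in more than 1 table, 8 of 23 in females and 7 of 24 in males had different bins in different tables, as at the Srebf2 promoter in males, so their values come from neighbouring stretches.

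The peaks of 27 of 41 male age bins were also in the table of MO against control in males at 8 weeks, with a median age change of 0.28, whereas the 14 others had a median of -0.78 and 12 of them were lower at 8 weeks. Over all male age bins, 67.0% were shared, with medians of 0.18 and -0.45. Both called male bins that were lower, at Idi1 and Insig1, were among the 14. The 8-week MO comparison of males holds the same 8-week control males as the age comparison. Absence from it and a lower value at 8 weeks are therefore not independent, and the absence is no separate support. How peaks came to be kept in a comparison was not tested. In females 27 of 30 were shared, beside 85.0% over all female age bins, and the called Insig1 bin was not.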
